A study of Mus musculus with 9 samples.

Results

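The genes described here encode the mouse proteasome: the catalytic core, the regulatory cap, the alternative activators, the assembly chaperones and the immunoproteasome subunits. They were taken as all protein-coding genes whose symbol begins with Psma, Psmb, Psmc, Psmd, Psme, Psmf or Psmg and a number, without pseudogenes, which gave 50 of the 55385 genes listed in each library. The study profiled kidneys of C57BL/6 mice by bulk RNA sequencing in 3 groups of 3 libraries. One group was taken 3 days and another 7 days after an intraperitoneal injection of cisplatin at 20 mg/kg, a platinum drug that injures the kidney tubule, and the sham group received saline in the same volume. Sex, age and the day on which sham kidneys were taken are not given in the labels. Values are FPKM, fragments scaled to transcript length and to the mapped total of the library, as the authors deposited them, and read depth is unknown.

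The proteasome degrades proteins tagged with ubiquitin. Its barrel-shaped 20S core holds outer rings of alpha subunits, which gate the channel, and inner rings of beta subunits, of which Psmb5, Psmb6 and Psmb7 carry the catalytic sites. The 19S cap recognises, unfolds and feeds in the tagged protein, with Psmc ATPases as its motor and Psmd subunits as receptors, scaffold and deubiquitinase. Under interferon, cells replace the catalytic subunits with Psmb8, Psmb9 and Psmb10, which favours peptides suited to MHC class I presentation. When proteasome capacity is short, the transcription factor NRF1 (gene Nfe2l1) induces core and cap genes together through antioxidant response elements.

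By role the 50 genes divided into 7 alpha subunits, 7 constitutive beta subunits, 3 immunosubunits, 6 cap ATPases and 11 other cap subunits. The rest were 3 cap assembly chaperones (Psmd5, Psmd9 and Psmd10), 4 core assembly chaperones (Psmg1 to Psmg4), 5 activator genes, the inhibitor Psmf1, the testis alpha subunit Psma8, the thymus beta subunit Psmb11 and Psmc3ip. Psmc3ip shares the symbol pattern but encodes a protein of meiotic recombination, not a proteasome subunit; it lay between 1.30 and 2.20 FPKM and was not called in any comparison. A gene was tested where it reached 1 FPKM in at least 3 of the 9 libraries, which 48 of the 50 did. Psma8 stayed between 0.04 and 0.16 FPKM, and Psmb11 was at 0.02 to 0.04 FPKM on day 3 and listed at 0 in every day 7 and sham library.

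The libraries carried the tubule markers of kidney, and these moved strongly with the groups. The summed FPKM of 8 tubule markers was 234.0 to 633 in the day 3 libraries, 2080 to 2116 in the day 7 libraries and 2259 to 2689 in the sham libraries. On day 3, 7 of the 8 were lower than in sham, and Aqp2 was not called. Neutrophil markers summed to 29.2 to 104 FPKM on day 3, 4.56 to 22.6 FPKM on day 7 and 2.74 to 14.5 FPKM in sham kidneys. Only 3 of these 8 markers reached the level for testing, and all 3 were higher on day 3. Of 6 tested general leukocyte markers none was called on day 3, with a median log2 difference of -0.16. Macrophage markers summed to 110 to 142 FPKM on day 3, 29.1 to 81.6 FPKM on day 7 and 67.0 to 74.1 FPKM in sham kidneys. The day 3 macrophage sum rested on Cd68, the 1 marker of the 6 tested that was called higher, while 4 were lower and the median log2 difference of the 6 was -1.16. In whole kidney, fewer cells of a type and less RNA per cell cannot be told apart, and the part of these shifts in the results below was not tested.

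Promoter stretches of a few members, and the interval between Psmb9 and its neighbour, are printed here because the known routes of proteasome gene induction act through such elements. RefSeq start regions on GRCm38.p6, from 250 bases upstream to 50 bases downstream, were available for 42 of the 50 genes. They were searched on both strands for TGACNNNGC, the core letters of an antioxidant response element, and for the core of an interferon response element, the tandem GAAA repeat, and no match of one overlapped a match of the other. The first occurred in 6 of the 42 (14.3%), against 14.0% of 27025 genes, and the second in 5 of the 42 (11.9%), against 3.99% of genes. A match is only an occurrence of the letters, and a miss says only that the letters are not in this window. In the stretches below, read 5′ to 3′ along each gene's own strand, capitals mark the letters of TGACNNNGC or its complement:
Psmc6, chr14:45329574-45329633, plus strand: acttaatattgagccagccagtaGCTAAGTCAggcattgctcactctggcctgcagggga
Psmd12, chr11:107479278-107479337, plus strand: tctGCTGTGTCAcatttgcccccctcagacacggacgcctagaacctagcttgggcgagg
Psmb5, chr14:54618016-54618075, minus strand: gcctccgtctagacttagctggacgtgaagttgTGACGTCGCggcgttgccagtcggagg
Psmb6, chr11:70525297-70525356, plus strand: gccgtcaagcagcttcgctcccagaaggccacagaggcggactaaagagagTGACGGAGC

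The same letters stood upstream of Psmc6 and Psmd12, which were higher than sham on both days, and of Psmb5 and Psmb6, which were not called on day 3 and were lower on day 7. The other 2 genes with the letters were Psmd9 and Psme4. The interferon core letters were found in the windows of Psmb3, Psmd4, Psmd9, Psme1 and Psmg4. None of the 3 immunosubunit windows held either set of letters.

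Psmb9 and Tap1, a subunit of the peptide transporter that feeds MHC class I, are transcribed away from each other. Their RefSeq start sites lie 225 bases apart on chr17:34187331-34187555, printed on the strand of Psmb9 and without capitals, since neither set of letters occurs in it:
Psmb9 to Tap1: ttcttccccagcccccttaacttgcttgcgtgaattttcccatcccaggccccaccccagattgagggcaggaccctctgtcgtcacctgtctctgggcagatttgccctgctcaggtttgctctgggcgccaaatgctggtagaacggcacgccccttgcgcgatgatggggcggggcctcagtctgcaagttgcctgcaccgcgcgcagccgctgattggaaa

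On day 3 after cisplatin the proteasome genes were mostly higher than in sham kidneys. Of the 48 tested genes, 30 were higher, 1 was lower and 17 were not called by limma (p adjusted by Benjamini-Hochberg across all 13718 tested genes, threshold 0.05). Over all tested genes, 59.9% were called, 39.3% higher and 20.6% lower, while 62.5% of the proteasome genes were called higher. The median log2 difference on the log2(FPKM + 1) scale was 0.54 over the proteasome genes and 0.25 over all tested genes. Because the median of all genes was itself above 0, median-of-ratios scaling, which brings it to 0.00, gave 16 proteasome genes higher and 3 lower. Those 16 are 33.3% of the 48, near the 28.9% of all tested genes called higher under that scaling, while 29.4% of all genes were called lower. Quantile normalization gave 27 higher and 2 lower, beside 29.9% and 28.5% of all tested genes.

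**Figure D1:**
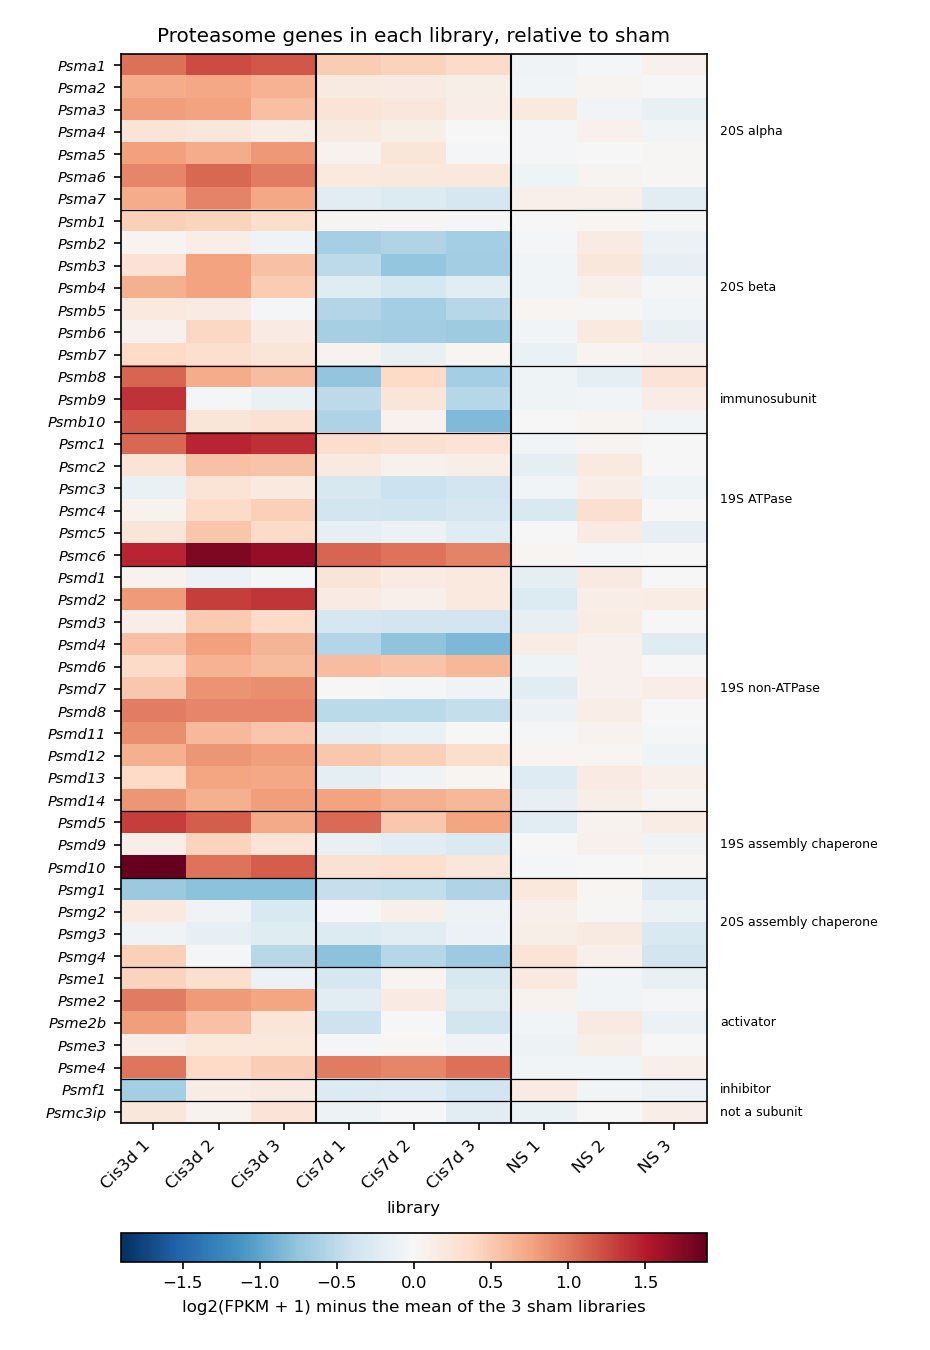
Heat map of the 48 tested proteasome genes (rows, by class) in the 9 libraries (columns: day 3, day 7, sham), coloured by log2(FPKM + 1) minus the mean of the 3 sham libraries. Most core and cap rows are red in all 3 day 3 libraries and near white or blue in the day 7 libraries, while the Psmb8, Psmb9 and Psmb10 rows are reddest in day 3 replicate 1; median-of-ratios scaling lowers the count of genes called higher on day 3 to 16.

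Among the alpha subunits, 6 of 7 were higher on day 3. Psma1 had 51.56, 59.11 and 56.67 FPKM in the day 3 libraries, against 23.29, 24.22 and 26.01 FPKM in the sham libraries. The lowest day 3 library stood well above the highest sham library, and the log2 difference was 1.15 ± 0.10 (SE, n = 3 each, limma adjusted p = 3.07e-05). Psma6, the most abundant alpha subunit in every group, averaged 128.2 ± 7.2 FPKM on day 3 and 63.7 ± 3.1 FPKM in sham kidneys (SD, n = 3 each). Psma4 had the smallest difference, with 68.60, 67.22 and 63.39 FPKM on day 3 against 56.03, 61.16 and 55.44 FPKM in sham kidneys. Its groups did not overlap, but the difference of 0.20 ± 0.10 was not called (limma adjusted p = 0.0997). The other alpha subunits, Psma2, Psma3, Psma5 and Psma7, differed from sham by 0.70 to 0.79. All 6 calls held under median-of-ratios scaling, and 4 of the 6 held once trends with GC content and transcript length were removed from each library.

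Of the beta subunits about as many were called as not, and the calls depended on the scaling. On day 3, 4 of 7 were higher (Psmb1, Psmb3, Psmb4 and Psmb7). Under median-of-ratios scaling none of the 7 was called, beside 28.9% of all tested genes higher and 29.4% lower. The difference of Psmb7 turned to -0.01 there. Psmb4 had the largest difference, with 101.91, 108.84 and 89.30 FPKM in the day 3 libraries against 61.22, 67.82 and 61.93 FPKM in the sham libraries. Every day 3 library was above every sham library, and the log2 difference was 0.64 ± 0.11 (limma adjusted p = 0.00100). Psmb2 had the smallest, with 58.05, 60.80 and 52.95 FPKM on day 3 against 54.52, 61.98 and 51.34 FPKM in sham kidneys, and the groups overlapped (0.04 ± 0.11, limma adjusted p = 0.794).

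Of the 3 catalytic beta subunits, 1 was called. Psmb5, the chymotrypsin-like subunit, had 117.54, 114.47 and 101.39 FPKM on day 3 against 105.80, 103.88 and 98.65 FPKM in sham kidneys, with overlapping groups and no call (0.11 ± 0.10, limma adjusted p = 0.371). Psmb6, the caspase-like subunit, had 73.46, 91.28 and 77.70 FPKM on day 3 against 67.11, 78.93 and 63.04 FPKM in sham kidneys, which also overlapped (0.21 ± 0.12, limma adjusted p = 0.169). Psmb7, the trypsin-like subunit, had 37.09, 35.28 and 33.26 FPKM on day 3 against 25.62, 29.20 and 29.93 FPKM in sham kidneys, without overlap, and was called (0.31 ± 0.11, limma adjusted p = 0.0352). Its exons overlap those of Nek6 on the other strand over 405 bases, and whether reads were counted by strand is not given in the sources used here.

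Most of the cap was higher too. On day 3, 4 of 6 ATPases and 10 of 11 other cap subunits were higher and none was lower, beside 39.3% and 20.6% of all tested genes. Under median-of-ratios scaling 7 of the 17 (41.2%) were higher and 0 lower, beside 28.9% and 29.4% of all tested genes. Psmc6 showed the largest difference of all 48 genes, with 35.55, 45.16 and 42.01 FPKM in the day 3 libraries against 12.83, 12.13 and 12.40 FPKM in the sham libraries. No libraries overlapped, and the log2 difference was 1.63 ± 0.11 (limma adjusted p = 1.21e-05). Psmc1, another ATPase of the ring, averaged 119 ± 15 FPKM on day 3 and 47.1 ± 1.8 FPKM in sham kidneys (SD, n = 3 each). Psmc3 differed least among the ATPases, with 58.46, 76.07 and 72.72 FPKM on day 3 against 61.45, 69.69 and 59.96 FPKM in sham kidneys, and overlapped (0.11 ± 0.12, limma adjusted p = 0.472).

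Of the other cap subunits, the scaffold Psmd2 differed most, with 55.65, 79.60 and 81.47 FPKM on day 3 against 25.83, 34.33 and 34.46 FPKM in sham kidneys. All 3 day 3 libraries were above all sham libraries (1.16 ± 0.17, limma adjusted p = 0.000479). Psmd1, the other large scaffold, was the single cap subunit outside the ATPases without a call. It had 15.92, 13.86 and 14.84 FPKM on day 3 against 13.36, 17.17 and 15.06 FPKM in sham kidneys, with all day 3 values inside the sham range (-0.02 ± 0.11, limma adjusted p = 0.867). Psmd14, the deubiquitinase that removes the ubiquitin chain from the substrate, had 22.29, 19.76 and 21.39 FPKM on day 3 against 10.62, 13.00 and 12.37 FPKM in sham kidneys, without overlap (0.77 ± 0.11, limma adjusted p = 0.000365).

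Of the assembly chaperones, 2 of 3 cap genes were higher on day 3, while of the 4 Psmg genes of the core 1 was lower and 3 were not called. Pomp, a core chaperone outside the Psmg symbols, was higher, as given below. Differences between these sets were not tested. Psmd10 (gankyrin), a cap chaperone, had 48.80, 26.65 and 28.92 FPKM on day 3 against 12.12, 12.52 and 12.80 FPKM in sham kidneys. Replicate 1 was highest, all 3 were above sham, and the log2 difference was 1.36 ± 0.20 (limma adjusted p = 0.000469). Psmd5 was also higher (1.06 ± 0.20), and Psmd9 was not called (0.27 ± 0.11, limma adjusted p = 0.0645). Psmg1, which pairs with Psmg2 to start the alpha ring, was the single proteasome gene called lower on day 3. It had 10.91, 10.24 and 10.21 FPKM on day 3 against 21.22, 18.85 and 15.36 FPKM in sham kidneys, without overlap (-0.76 ± 0.13, limma adjusted p = 0.000911), and this call held under all 19 alternatives. Psmg4 overlapped between the groups, with 16.34, 11.51 and 7.78 FPKM on day 3 against 14.15, 12.57 and 8.96 FPKM in sham kidneys (-0.03 ± 0.25). Psmg2 and Psmg3 were not called either, at -0.05 and -0.15. Median-of-ratios scaling, however, called 3 of the 4 Psmg genes lower, beside 29.4% of all tested genes.

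**Figure D2:**
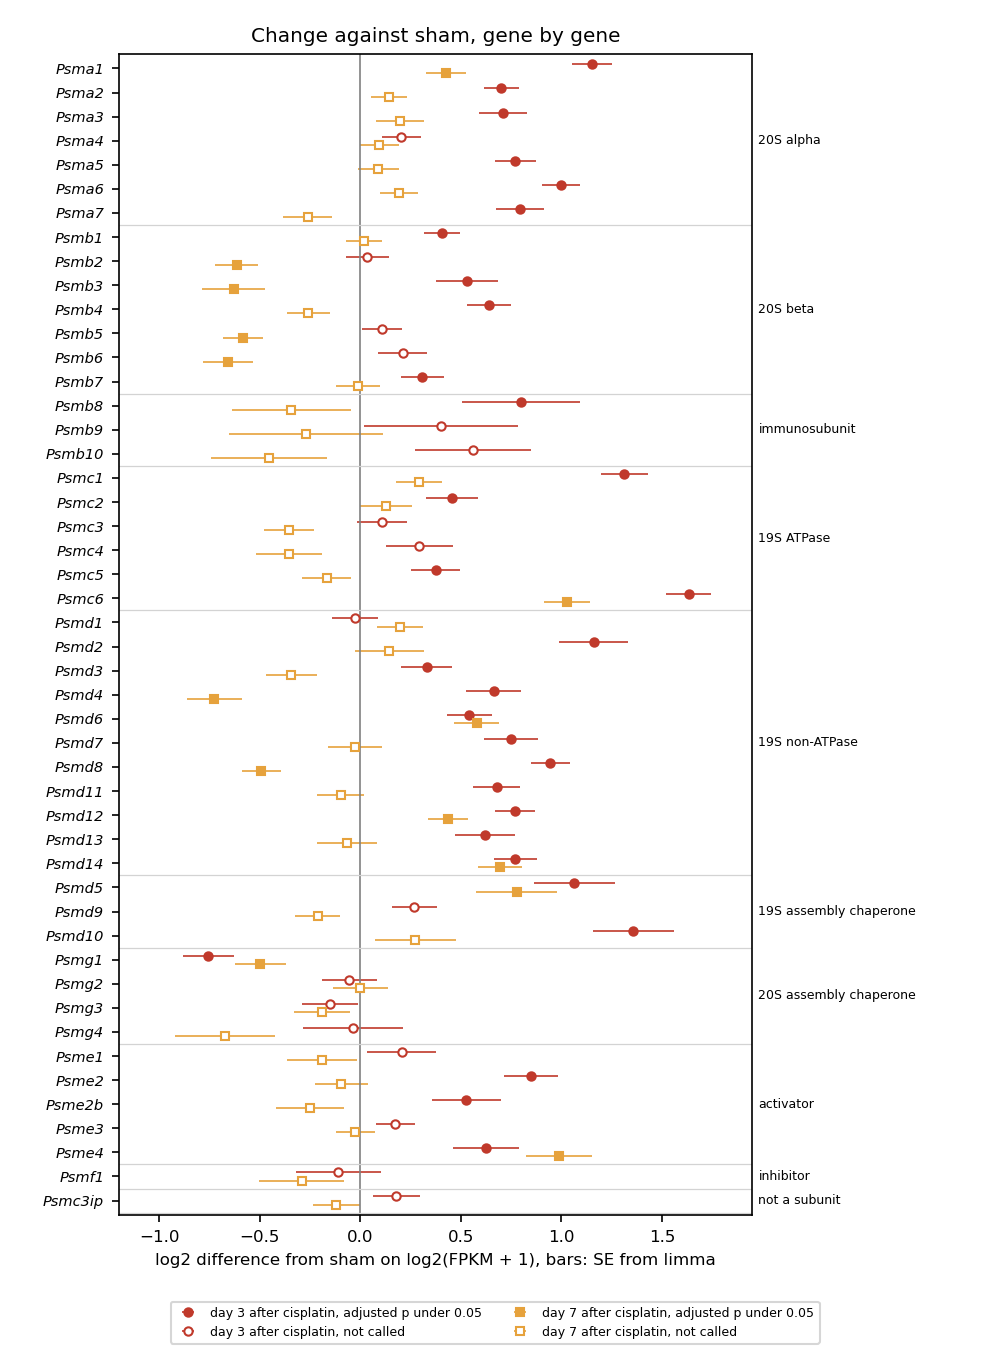
Log2 difference from sham on log2(FPKM + 1) for each of the 48 tested genes, on day 3 (circles) and day 7 (squares), with the SE from limma and filled symbols for an adjusted p under 0.05. On day 3, 30 symbols are filled to the right and 1 to the left, and on day 7 there are 7 on each side; under median-of-ratios scaling the filled counts are 16 and 3 on day 3, and 5 and 10 on day 7.

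Of the activators, Psme1 and Psme2 form the interferon-inducible ring, Psme3 its nuclear counterpart, and Psme4 a nuclear activator tied to histone turnover. Psme2 had 31.52, 27.65 and 26.59 FPKM on day 3 against 16.24, 14.78 and 15.16 FPKM in sham kidneys. All day 3 libraries lay above all sham libraries (0.85 ± 0.13, limma adjusted p = 0.000627), and the call held under all 19 alternatives. Its partner Psme1 had 27.61, 25.24 and 18.79 FPKM on day 3 against 23.24, 19.59 and 18.35 FPKM in sham kidneys, which overlapped, and was not called (0.21 ± 0.17, limma adjusted p = 0.323). The FPKM of Psme2 was 114%, 110% and 142% of that of Psme1 on day 3, against 69.9%, 75.4% and 82.6% in sham kidneys, with no overlap.

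Psme2b is a near-identical copy of Psme2, since 789 of 794 aligned transcript bases are the same, so the values of both genes are uncertain. That limit also covers the calls of Psme2 and its percentages of Psme1, here and on day 7. Psme2b had 23.12, 19.55 and 15.40 FPKM on day 3 against 12.48, 14.64 and 11.85 FPKM in sham kidneys (0.53 ± 0.17, limma adjusted p = 0.0249). Psme3 had 37.41, 39.77 and 39.63 FPKM on day 3 against 31.95, 37.32 and 34.04 FPKM in sham kidneys, barely apart and not called (0.17 ± 0.10, limma adjusted p = 0.151). Psme4 had 19.58, 12.23 and 13.04 FPKM on day 3 against 8.81, 8.77 and 9.87 FPKM in sham kidneys, without overlap (0.63 ± 0.16, limma adjusted p = 0.00988). Psme4 was not called under median-of-ratios scaling or with the GC content and length trends removed, and its limma adjusted p lay between 0.00723 and 0.625 over the alternatives. The inhibitor Psmf1 had 3.05, 6.02 and 6.17 FPKM on day 3 against 6.11, 5.10 and 4.91 FPKM in sham kidneys, with replicate 1 the lowest of all (-0.11 ± 0.21, limma adjusted p = 0.671).

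The immunosubunits were expressed far below the subunits they replace, and all 3 were highest in 1 day 3 library. Psmb8 (chr17:34197721-34201454 on GRCm38, GENCODE M21) had 7.64, 5.53 and 5.0 FPKM on day 3 against 2.80, 2.52 and 3.80 FPKM in sham kidneys. The groups did not overlap and Psmb8 was called higher at 0.80 ± 0.30 (limma adjusted p = 0.0425), but the call held in 9 of 19 alternatives, with adjusted p between 0.00602 and 0.148. Without day 3 replicate 1 the difference was 0.64 (limma adjusted p = 0.126). Psmb9 (chr17:34181987-34187764) had 5.0, 1.28 and 1.13 FPKM on day 3 against 1.19, 1.24 and 1.57 FPKM in sham kidneys. Replicate 1 alone stood above sham, the others lay within or below the sham range, and the difference of 0.40 ± 0.38 was not called (limma adjusted p = 0.386). Without that replicate it was -0.08. Psmb10 (chr8:105935735-105938444) had 12.16, 5.92 and 6.19 FPKM on day 3 against 4.89, 5.09 and 4.70 FPKM in sham kidneys, without overlap and without a call (0.56 ± 0.29, limma adjusted p = 0.122).

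Set against the subunit it replaces, Psmb8 reached 6.50%, 4.83% and 4.93% of the FPKM of Psmb5 on day 3, against 2.65%, 2.43% and 3.85% in sham kidneys, with no overlap. Psmb9 reached 6.81%, 1.40% and 1.45% of Psmb6 on day 3 against 1.77%, 1.57% and 2.49% in sham kidneys. Psmb10 reached 32.8%, 16.8% and 18.6% of Psmb7 on day 3 against 19.1%, 17.4% and 15.7% in sham kidneys. In both of these pairs day 3 replicate 1 was high and the groups overlapped.

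The same library stood out in the interferon pathway, and also in genes outside it, such as Psmd10, Psme4 and Psmf1 described above. Irf1, the interferon-induced factor that acts on Psmb9 and Tap1, had 48.30, 3.49 and 9.25 FPKM on day 3 against 4.43, 3.96 and 6.53 FPKM in sham kidneys. It was not called (limma adjusted p = 0.205). The summed FPKM of leukocyte markers was lowest in that library among the day 3 libraries, at 18.4 against 57.1 and 43.6 in the other day 3 libraries and 36.2 to 41.0 in sham kidneys. T and NK cell markers summed to 0.07 to 0.26 FPKM on day 3 and 1.43 to 3.53 FPKM in sham kidneys, and 0 of these 8 genes passed the filter. Ifng, the gene of interferon gamma, was listed at 0 in all 3 day 3 libraries. The part of such cells in the values of that library was not tested.

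Over the list of interferon regulators, 8 of 12 tested genes were higher on day 3, beside 39.3% of all tested genes, and none was lower. Under median-of-ratios scaling 7 were higher, beside 28.9%. The 3 with the largest differences were the receptor chain Ifngr2 (2.13 ± 0.18), Irf7 (1.83 ± 0.21) and Stat2 (1.36 ± 0.31), which were called under all 19 alternatives. Of the MHC class I loading genes, 5 of 10 were higher and 1, the chaperone Calr, was lower, beside 39.3% and 20.6% of all tested genes. Median-of-ratios scaling gave 2 higher and 1 lower, beside 28.9% and 29.4% of all tested genes. Quantile normalization gave 3 higher, beside 29.9%. Removal of GC content and length trends also gave 3 higher, beside 3986 of 13707 genes. Tap1 had 13.17, 4.44 and 5.19 FPKM on day 3 against 1.46, 1.01 and 2.27 FPKM in sham kidneys. It was higher in all 3 libraries (1.63 ± 0.34, limma adjusted p = 0.00311), although Psmb9, whose RefSeq start lies 225 bases away, was above sham in 1. In GENCODE M21, unlike RefSeq, Psmb9 reaches to chr17:34187764, past the printed interval. There its exons share 212 bases with those of Tap1 on the opposite strand.

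**Figure D3:**
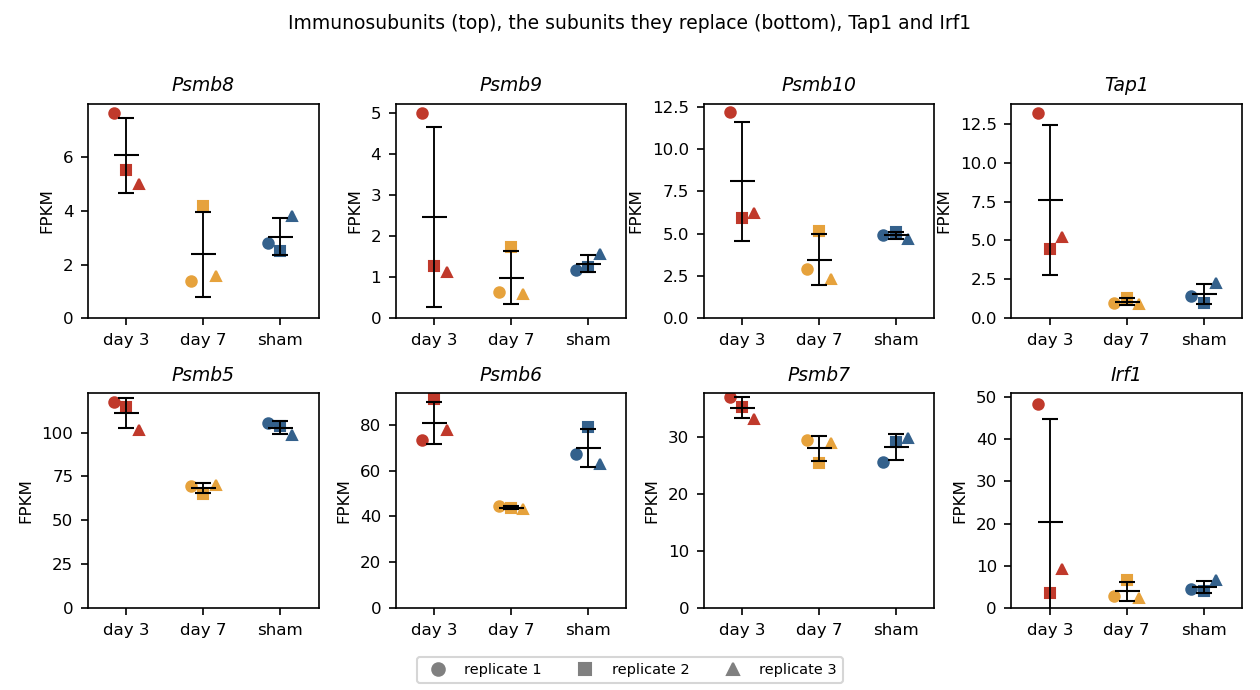
FPKM of Psmb8, Psmb9 and Psmb10 (top), the subunits they replace, Psmb5, Psmb6 and Psmb7 (bottom), and Tap1 and Irf1 (right), in day 3, day 7 and sham libraries, each symbol a replicate number, with mean and SD (n = 3; axes start at 0, where the Irf1 bar is cut). Day 3 replicate 1 is highest of the 9 libraries for Psmb8 (7.64), Psmb9 (5.0), Psmb10 (12.16), Tap1 (13.17) and Irf1 (48.30).

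Around the particle itself, proteasome-associated proteins were mostly higher on day 3, with 10 of 13 tested genes higher and none lower, beside 39.3% of all tested genes higher. Under median-of-ratios scaling 7 of the list were higher, beside 28.9%. The largest differences were those of Zfand2a, a stress-induced binder of the cap, at 2.72 ± 0.30, Zfand5, an activator of the 26S particle, at 1.72 ± 0.18, and the cap deubiquitinase Usp14 at 1.22 ± 0.18. Zfand2a had 17.17, 41.70 and 41.96 FPKM on day 3 against 3.36, 3.92 and 4.46 FPKM in sham kidneys. Pomp, the chaperone that matures the beta ring, was higher at 0.89 ± 0.10 (limma adjusted p = 9.01e-05). All 4 of these calls held under every alternative tried.

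The NRF1 list gave 6 higher and 1 lower of 11 tested genes, beside 39.3% and 20.6% of all tested genes. Nfe2l1 itself was not called, with 8.33, 9.02 and 8.85 FPKM on day 3 against 6.54, 7.58 and 7.96 FPKM in sham kidneys (0.22 ± 0.11, limma adjusted p = 0.110), and neither was Ddi2, the protease that activates it (-0.06 ± 0.15). The members that rose furthest were its small MAF partners Maff (3.07 ± 0.41) and Mafk (2.55 ± 0.23) and the related factor Nfe2l2 (1.52 ± 0.16). Nfe2l2 had 88.18, 75.86 and 70.14 FPKM on day 3 against 29.78, 22.98 and 27.14 FPKM in sham kidneys. Syvn1, a ligase of the endoplasmic reticulum, was lower (-0.71 ± 0.17).

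On day 7 most proteasome genes were not called against sham. Of the 48, 7 were higher, 7 were lower and 34 were not called, or 29.2% called, beside 29.7% of all tested genes (19.3% higher and 10.4% lower). The median log2 difference was -0.10 over the proteasome genes and 0.06 over all genes. Median-of-ratios scaling moved the split to 5 higher and 10 lower, beside 2103 higher and 2321 lower of all 13718 tested genes. Quantile normalization gave 8 of each, beside 2243 and 2011 of the 13718. With mitochondrial transcripts left out it was 12 higher and 4 lower, beside 3628 and 654 of 13681. With GC content and length trends removed it was 1 higher and 5 lower, beside 422 and 512 of 13707.

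The 7 higher genes, Psma1, Psmc6, Psmd5, Psmd6, Psmd12, Psmd14 and Psme4, had all been higher on day 3 against the same sham libraries. Psmc6 had 28.05, 26.63 and 24.79 FPKM on day 7 against 12.83, 12.13 and 12.40 FPKM in sham kidneys, without overlap (1.03 ± 0.11, limma adjusted p = 0.00145). Psme4 had 19.13, 18.34 and 19.88 FPKM on day 7 against 8.81, 8.77 and 9.87 FPKM in sham kidneys, again apart (0.99 ± 0.16, limma adjusted p = 0.00374). Psmd5 followed with 7.63, 4.81 and 5.83 FPKM on day 7 against 2.52, 3.28 and 3.51 FPKM in sham kidneys (0.78 ± 0.20, limma adjusted p = 0.0205). Psmd14 had 21.11, 19.77 and 19.15 FPKM on day 7 against 10.62, 13.00 and 12.37 FPKM in sham kidneys (0.70 ± 0.11, limma adjusted p = 0.00301). All day 7 libraries of these genes were above all sham libraries.

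The 7 lower genes held 4 beta subunits, Psmb2, Psmb3, Psmb5 and Psmb6, along with Psmd4, Psmd8 and Psmg1. Psmb5 had 69.52, 65.04 and 70.42 FPKM on day 7 against 105.80, 103.88 and 98.65 FPKM in sham kidneys (-0.58 ± 0.10, limma adjusted p = 0.00427). Psmb6 had 44.39, 43.52 and 43.10 FPKM on day 7 against 67.11, 78.93 and 63.04 FPKM in sham kidneys (-0.66 ± 0.12, limma adjusted p = 0.00603). Both catalytic subunits lay below sham in every library, whereas Psmb7 overlapped it, with 29.59, 25.54 and 28.99 FPKM on day 7 (-0.01 ± 0.11, limma adjusted p = 0.958). Psmd4, the ubiquitin receptor of the cap, had 23.84, 20.56 and 19.38 FPKM on day 7 against 39.55, 37.86 and 30.23 FPKM in sham kidneys, without overlap (-0.72 ± 0.14, limma adjusted p = 0.00588).

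Transcript GC content moved with these day 7 calls. The 7 higher genes had GC contents of 37.0% to 47.9% in their longest transcript, and the 7 lower genes 49.7% to 56.6%, so the sets did not overlap. Across the 48 genes the day 7 difference and GC content had Pearson's r of -0.69 and Spearman's rho of -0.75, and across 13707 genes -0.60 and -0.66. These points share the same 6 libraries, and the values are descriptions. With the trends removed, 1 of the 7 higher genes (Psmd6) and 2 of the 7 lower genes (Psmb2 and Psmd4) were still called, while Psma2, Psmb7 and Psmd11 were newly called lower, and the calls over all genes went to 934, against 4075 without that step.

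**Figure D4:**
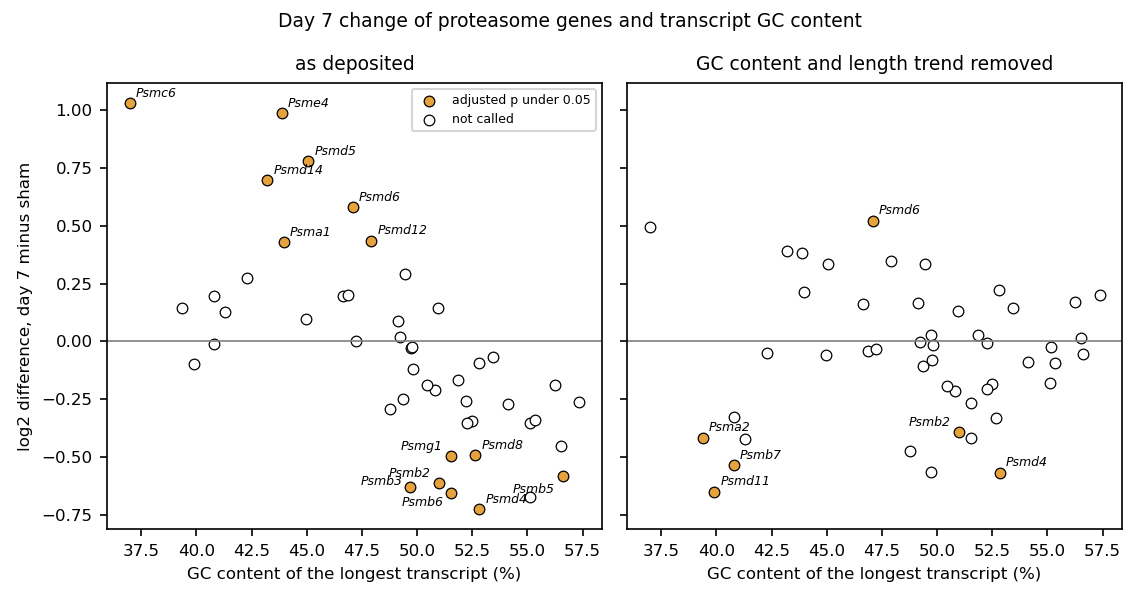
Log2 difference of day 7 minus sham (vertical axis) against GC content of the longest transcript in percent (horizontal axis) for the 48 tested genes, as deposited (left) and with trends on GC content and length removed from each library (right); filled points have an adjusted p under 0.05. On the left the 7 genes called higher lie at or under 47.9% GC and the 7 called lower at or over 49.7%, and on the right Psmd6 is the 1 gene called higher.

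The immunosubunits were not called on day 7, and replicate 2 was the highest there. Psmb8 had 1.37, 4.19 and 1.56 FPKM on day 7 against 2.80, 2.52 and 3.80 FPKM in sham kidneys (-0.34 ± 0.30). Psmb9 had 0.65, 1.73 and 0.60 FPKM on day 7 against 1.19, 1.24 and 1.57 FPKM in sham kidneys (-0.27 ± 0.38). Psmb10 had 2.91, 5.17 and 2.30 FPKM on day 7 against 4.89, 5.09 and 4.70 FPKM in sham kidneys (-0.45 ± 0.29). In each case replicate 2 was above all sham libraries and the other day 7 replicates below them, and leaving it out called Psmb8 lower (-0.70, limma adjusted p = 0.0457, within a range of 0.0457 to 0.790 over the alternatives). Leukocyte markers were high in the same library, at a summed 45.7 FPKM against 18.0 and 13.9 in the other day 7 libraries, and their part in these values was not tested.

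Among the activators Psme1, Psme2, Psme2b and Psme3 were not called on day 7. Psme1 had 16.13, 20.99 and 16.29 FPKM on day 7 against 23.24, 19.59 and 18.35 FPKM in sham kidneys (-0.19 ± 0.17). Psme2 had 13.21, 17.30 and 12.91 FPKM on day 7 against 16.24, 14.78 and 15.16 FPKM in sham kidneys (-0.09 ± 0.13). Its FPKM was 79.3% to 82.4% of that of Psme1, inside the sham range. Psme3 had 33.64, 34.92 and 32.77 FPKM on day 7, also within the sham range (-0.02 ± 0.10), and Psmf1 had 4.29, 4.35 and 3.94 FPKM, below every sham library but without a call (-0.29 ± 0.21, limma adjusted p = 0.330).

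In the proteasome-associated list 7 of 13 genes were higher on day 7, beside 19.3% of all tested genes higher and 10.4% lower. With GC content and length trends removed, 0 were higher and 2 were lower, beside 422 higher and 512 lower of 13707 genes. The largest of the 7 were Usp14 (0.76 ± 0.18), the ubiquitin ligase Ube3c (0.74 ± 0.13) and the cap deubiquitinase Uchl5 (0.68 ± 0.14). On the NRF1 list, Ngly1, the glycanase that edits NRF1, and the segregase Vcp were higher (0.91 ± 0.12 and 0.48 ± 0.16) and Syvn1 was lower. The call of Vcp held in 6 of 19 alternatives. Of the 12 interferon regulators, 2 were higher, the kinases Jak1 (0.70 ± 0.12) and Jak2 (0.56 ± 0.16), and none was lower. Of the 10 MHC class I loading genes, the peptide trimmer Erap1 (0.91 ± 0.16) and the chaperone Canx (0.96 ± 0.18) were higher and the class I chain H2-D1 was lower (-0.80 ± 0.22). The calls of Jak2 and H2-D1 each held in 11 of 19 alternatives. With GC content and length trends removed, none of the genes of the NRF1, interferon and MHC class I lists was called on day 7. Few genes of any kind were called at that setting, 422 higher and 512 lower of 13707.

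In 17 genes with a call against sham at either time, the difference pointed up on day 3 and down on day 7. They are 35.4% of the 48, beside 13.4% of all 13718 tested genes with that pattern, a description that carries no test. Both comparisons share the same 3 sham libraries. Psmb3, Psmb4, Psmb8, Psmd3, Psmd4, Psmd8 and Psme2b kept both directions under all 19 alternatives. In each of the others at least 1 uncalled direction turned or, for Psmb7, the called one: Psmb2, Psmb5, Psmb6 and Psmb7 were below 0 on day 3 under median-of-ratios scaling, and Psmb7, Psmc5, Psmd7, Psmd11, Psmd13 and Psme2 were above 0 on day 7 with mitochondrial transcripts left out. Psma7 was above 0 on day 7 with GC content and length trends removed. Psmb3, Psmd4 and Psmd8 were called at both times, and Psmb2, Psmb5 and Psmb6 on day 7 alone. The other 11 were called on day 3 alone, among them Psmb7, Psmb8, Psme2 and Psme2b, described above. Psmd8, a small cap subunit, had 68.30, 66.23 and 66.36 FPKM on day 3 and 23.64, 23.78 and 24.87 FPKM on day 7, against 31.64, 37.49 and 33.95 FPKM in sham kidneys. All day 3 libraries lay above all sham libraries and all day 7 libraries below them (0.95 ± 0.10 and -0.49 ± 0.10, limma adjusted p = 6.94e-05 and 0.00735).

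Psmb3 had 49.14, 69.82 and 60.09 FPKM on day 3 and 28.58, 23.96 and 25.31 FPKM on day 7, against 38.94, 47.02 and 36.45 FPKM in sham kidneys, with the same separation (0.53 ± 0.16 and -0.63 ± 0.16, limma adjusted p = 0.0164 and 0.0175). Psma7 of the alpha ring had 43.87, 52.18 and 44.74 FPKM on day 3 and 22.83, 22.00 and 21.15 FPKM on day 7, against 28.41, 28.53 and 23.07 FPKM in sham kidneys. It too stood above sham and then below it, with no call on day 7 (-0.26 ± 0.12, limma adjusted p = 0.135). Psmb4 had 54.35, 50.44 and 54.44 FPKM on day 7, below every sham library (-0.26 ± 0.11, limma adjusted p = 0.107).

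Among the cap subunits, Psmd7, the partner of Psmd14, had 52.28, 65.94 and 67.83 FPKM on day 3 and 36.57, 35.34 and 34.66 FPKM on day 7, against 31.51, 38.20 and 39.41 FPKM in sham kidneys. Psmd11, a lid scaffold subunit, had 24.66, 20.20 and 19.07 FPKM on day 3 and 11.38, 11.76 and 12.78 FPKM on day 7, against 12.45, 13.55 and 12.62 FPKM in sham kidneys. Both were above sham on day 3 (0.75 ± 0.13 and 0.68 ± 0.12) and overlapped it on day 7. Psmd3 had 30.56, 39.86 and 36.45 FPKM on day 3 and 22.30, 21.63 and 21.62 FPKM on day 7, against 25.03, 31.01 and 28.15 FPKM in sham kidneys. It overlapped sham on day 3, where it was just called (0.33 ± 0.13, limma adjusted p = 0.0486), and lay below it on day 7 without a call (-0.34 ± 0.13, limma adjusted p = 0.0720). Psmd13 and the ATPase Psmc5 were higher on day 3 (0.62 ± 0.15 and 0.38 ± 0.12) and overlapped sham on day 7 (-0.07 and -0.17). Sirt3, which shares 342 exon bases with Psmd13 on the other strand, had lower FPKM than Psmd13 in every library.

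Day 7 and day 3 differed directly in most of the genes. Of the 48, 32 were lower on day 7 than on day 3, none was higher and 16 were not called, beside 55.4% of all tested genes called (21.7% higher and 33.7% lower). None was higher at an unadjusted p under 0.05 either. Median-of-ratios scaling gave 3 higher and 26 lower, beside 3724 higher and 3710 lower of all 13718 tested genes. Quantile normalization gave 3 higher and 30 lower, beside 3811 and 3845 of the 13718. The lower genes held 6 of 7 alpha subunits, all 7 beta subunits, 13 of 17 cap subunits and 2 of 3 immunosubunits, Psmb8 (-1.14 ± 0.30) and Psmb10 (-1.01 ± 0.29). The call of Psmb8 held under all 19 alternatives, and that of Psmb10 was lost with GC content and length trends removed and without day 7 replicate 1 or 3. The median log2 difference was -0.64, against -0.16 over all genes. Psmd6, Psmd14 and Psme4 were not called between the days, at 0.04 ± 0.11, -0.08 ± 0.11 and 0.36 ± 0.16.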

How the data were processed

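Kidney RNA of 9 mice was sequenced from libraries made with a directional NEB kit, and the authors deposited 1 file a library with FPKM for each gene, per the file headers. The submitters' processing notes name HISAT, StringTie, FastQC 0.10.1 and GRCm38. The sources used here give no settings, annotation release or strand option. FPKM is scaled within a library, so abundant transcripts lower all others, and depth, hence counting error, is unknown.

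Symbols came from GENCODE M21 and were found for 55144 of 55385 gene IDs. The value log2(FPKM + 1), which understates changes of low genes, was fitted with limma 3.58.1 in R 4.3.3 (eBayes with trend) on all 9 libraries, for genes of at least 1 FPKM in 3 libraries. Each of the 3 contrasts was two-sided. The code was tested on simulated data. Errors are the SD of the libraries of a group or the SE of log2 differences. The design text calls the 3 libraries of a group biological repeats.

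The members, gene lists and naming rule were chosen with earlier results of these data known. Named in full were the immunosubunits and their counterparts, activators and inhibitor, the largest and smallest day 3 difference in each class, the 5 largest day 7 calls and members whose direction against sham differed between the days with a call at either. In each pathway list up to 3 called genes were named. Psma6, Psmc1, Psmd5, Psmd14, Pomp, Nfe2l1, Ddi2, Nfe2l2, Irf1, Tap1, Calr, Syvn1, Vcp and Ifng were added after values were seen. Of 121 list genes 120 were matched. Some named list genes are not reported here. Alternatives were another pseudocount, filter, scaling or variance model, GC content and length correction, a replicate block, fewer libraries and each library left out.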

Additional observations from a re-analysis of the deposited data

Results flagged for a closer look

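Psmb3, Psmd4 and Psmd8 were called higher than sham on day 3 and lower than sham on day 7, and the difference between the days was itself called. Both comparisons with sham share the same 3 sham libraries. Psmb3, a constitutive beta subunit, had 28.58, 23.96 and 25.31 FPKM on day 7 against 49.14, 69.82 and 60.09 FPKM on day 3, a log2 difference of -1.16 ± 0.16 (limma adjusted p = 0.000332), beside 38.94, 47.02 and 36.45 FPKM in sham kidneys. The ubiquitin receptor Psmd4 had 23.84, 20.56 and 19.38 FPKM on day 7 against 53.12, 61.79 and 56.50 FPKM on day 3, a difference of -1.39 ± 0.14 (limma adjusted p = 7.09e-05). The cap subunit Psmd8 had 23.64, 23.78 and 24.87 FPKM on day 7 against 68.30, 66.23 and 66.36 FPKM on day 3, with 31.64, 37.49 and 33.95 FPKM in sham kidneys, a difference of -1.44 ± 0.10 (limma adjusted p = 1.22e-05). The 3 groups were fully separated for each of these genes. All 3 differences between the days were called under every alternative. The day 3 call of Psmb3 and Psmd4 was lost under median-of-ratios scaling, and that of Psmb3 also without day 3 replicate 2 and without sham replicate 3. The day 7 call of Psmb3 and Psmd8 was lost with mitochondrial transcripts left out and with GC content and length trends removed, that of Psmb3 also without 1 of 3 libraries in turn (sham replicate 2, day 7 replicate 2 or 3), while that of Psmd4 held under all 19 alternatives.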

How the results depend on the processing

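Under median-of-ratios scaling, 16 proteasome genes were higher and 3 lower on day 3 against sham, in place of 30 and 1. Over all tested genes 28.9% were higher and 29.4% lower under it. Between the days, 3 proteasome genes were higher on day 7 under that scaling, in place of 0, beside 3724 of all 13718 genes. Quantile normalization gave 2 lower on day 3, beside 28.5% of all tested genes. It gave 3 higher between the days, beside 3811 of 13718. With mitochondrial transcripts left out, 12 were higher and 4 lower on day 7 against sham, in place of 7 and 7. All genes moved there too, to 3628 higher and 654 lower of 13681, from 2646 and 1429 of 13718. With GC content and length trends removed, 1 was higher on day 7 against sham, beside 422 of 13707 genes. Between the days 1 was higher at that setting, beside 3619. In 3 genes the direction turned with a call before or after: Psmb7 went to -0.0087 under median-of-ratios scaling and to -0.18 with trends removed on day 3, Psmc2 to -0.076 on day 3 with trends removed, and Psma2 to -0.42 on day 7, where it became called. In 80 further cases the sign turned while neither value was called. The cause was not tested. Leaving out 1 library at a time gave 4 to 9 genes higher on day 7 against sham, lowest without day 7 replicate 1, and 0 to 1 higher between the days, the 1 without day 3 replicate 1. Across these, 23 of the 30 day 3 calls, 4 of 7 higher and 5 of 7 lower day 7 calls and 29 of the 32 calls between the days held each time. Psmb3, Psmb7, Psmb8, Psmc2, Psmc5, Psmd3 and Psme2b were those lost on day 3. Under every alternative, 13 of the 30 higher on day 3, 1 of 7 higher and 2 of 7 lower on day 7 and 23 of the 32 between the days held. Deviations of same-numbered libraries correlated by -0.05 to 0.24. Different-numbered libraries were not set beside them, so whether the replicate numbers pair the libraries is not settled. With the number as a block, 28 genes were higher on day 3, 7 higher and 8 lower on day 7, and 32 lower between the days. With 3 libraries a group and depth unknown, small differences cannot be resolved.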

Other observations

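The genes that supply ubiquitin itself went in both directions on day 3. Ubb, which encodes polyubiquitin, had 522.40, 528.55 and 497.88 FPKM on day 3 and 426.49, 394.01 and 403.94 FPKM on day 7, against 865.56, 924.89 and 923.39 FPKM in sham kidneys. It was lower on both days, by -0.81 ± 0.10 and -1.15 ± 0.10 on the log2 scale (limma adjusted p = 0.000160 and 0.00110), under all 19 alternatives. Rps27a, in which ubiquitin is fused to a ribosomal protein, had 156.94, 169.67 and 148.03 FPKM on day 3 against 64.65, 62.30 and 53.47 FPKM in sham kidneys (1.38 ± 0.14, limma adjusted p = 6.06e-05), and was not called on day 7. Of the 13 genes of ubiquitin supply and shuttling, 5 were higher and 2 lower on day 3, beside 39.3% and 20.6% of all tested genes. On day 7, 3 were higher and 4 lower, beside 19.3% and 10.4%. With GC content and length trends removed, 0 were higher and 1 lower on day 7, beside 422 higher and 512 lower of 13707 genes. Beside Rps27a, the largest rises on day 3 were those of the shuttle factors Ubqln2 (1.5 ± 0.16) and Nub1 (0.99 ± 0.12).

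B cell markers summed to 1.43 to 2.22 FPKM on day 3, 3.01 to 5.72 on day 7 and 5.0 to 11.0 in sham kidneys, and dendritic cell markers to 19 to 51.4 FPKM on day 3, 75.0 to 234 on day 7 and 160.5 to 363 in sham kidneys. Only 1 of the 6 B cell markers and 4 of the 8 dendritic cell markers passed the filter on low values. The dendritic cell list includes the MHC class II genes H2-Ab1 and H2-Aa. Podocyte and endothelial markers summed to 27.4 to 58.9 FPKM on day 3, 55.3 to 77.8 on day 7 and 63.6 to 70.8 in sham kidneys.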
